A study of Homo sapiens with 36 samples.

Results

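The genes described here are 10 genes of copper and platinum transport, chosen by name: the copper importers SLC31A1 and SLC31A2, the copper-exporting ATPases ATP7A and ATP7B, the copper chaperones ATOX1, COX17 and CCS, the anion channel subunits LRRC8A and LRRC8D, and the organic cation exporter SLC47A1. They are 10 of the 57820 genes in the deposited count table. All 10 were matched by symbol, and 9 passed the filter on low counts in every comparison, SLC31A2 being the exception. RNA-seq was performed on cells of A2780, which derives from a human ovarian carcinoma. There were 12 conditions with 3 libraries each, 36 in all. The lines were the platinum-sensitive parental cells (wt), the cisplatin-resistant cells made from them by chronic cisplatin exposure (cis), and cells that resumed growth from the cis line during serine and glycine starvation (cis SSP). Each line was grown with serine and glycine or without them (-SG), and with or without carboplatin (carbo), so that the conditions are wt, wt carbo, wt -SG, wt -SG carbo and the same 4 for cis and cis SSP. The labels write the carboplatin dose as 6 M and name no time of treatment. Growth assays of the same work used carboplatin at 6 µM, so the unit in the labels may lack its prefix, and the dose of these libraries was not settled here. The study calls the 3 libraries of a condition technical replicates, and each resistant line is a single derived population, so every p-value below measures the spread between libraries and not between independent cultures or independently derived lines.

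Copper enters cells through the SLC31 family of trimeric membrane channels and is then handed to small chaperones, which carry it to particular proteins: ATOX1 to the copper-exporting ATPases, CCS to the superoxide dismutase SOD1, and COX17 to cytochrome c oxidase in mitochondria. The ATPases ATP7A and ATP7B load copper into secreted enzymes and export it when it is in excess, and several of these proteins can also bind or move platinum drugs. LRRC8 proteins form the volume-regulated anion channel, in which LRRC8A is the indispensable subunit, and channels that contain LRRC8D pass cisplatin and carboplatin. SLC47A1 is a proton-coupled exporter of organic cations, known mostly from kidney and liver.

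Levels are given as CPM, the counts of a gene relative to the library size after TMM scaling, and differences as log2 fold changes with standard errors from edgeR's quasi-likelihood test, called at a Benjamini-Hochberg adjusted p under 0.05 over all genes tested. The libraries held 13074937 to 20441582 counts on genes. Of 8 epithelial ovarian markers, PAX8, MUC16, CDH1 and KRT7 had at most 10, 3, 6 and 1 counts in any library, WT1, EPCAM and KRT8 at most 27, 33 and 112, and KRT18 at most 830. KRT18 stood at 0.344 to 7.47 CPM in wt libraries of all media, 15.9 to 44.1 in cis and 7.24 to 16.9 in cis SSP. Of the mesenchymal markers VIM stood at 1520 to 4600 CPM, whereas FN1 stood at 0 to 2.87 CPM, with at most 51 counts. Of 5 matched markers that such a culture should lack, the leukocyte genes PTPRC and CD3E and the hepatocyte gene ALB had at most 1, 0 and 2 counts. The fibroblast collagen gene COL1A1 stood at 96.4 to 991 CPM over the wt libraries of all media, 1.66 to 4.65 in cis and 8.26 to 19.5 in cis SSP, and DCN at 19.7 to 26.9 in cis SSP against at most 1.02 elsewhere. The summed level of these 5 markers was 162 to 166 CPM in wt, 852 to 859 in wt carbo, 4.34 to 5.14 in cis and 37.1 to 45.4 in cis SSP. That of the 8 epithelial markers was 1.78 to 2.44 in wt, 11.6 to 13.3 in wt carbo, 16.7 to 19.9 in cis and 44.8 to 48.4 in cis -SG. Both sums therefore moved with the line and the treatments, and their part in the differences below was not tested. In bulk libraries, fewer cells that express a gene and less RNA of that gene per cell cannot be told apart.

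Library 25 of cis SSP and library 32 of cis SSP -SG stood apart from the other 2 libraries of their conditions, and the members showed it by transcript length. In library 25 the short transcripts ATOX1, COX17 and CCS, of 471, 426 and 1066 bases, were at 2.17, 2.10 and 1.99 times the mean of the other cis SSP libraries. The longest, ATP7A with 8492 bases and ATP7B with 6598, were at 0.166 and 0.449 times that mean. Library 32 gave almost the same picture, with ratios of 2.09, 2.13 and 2.24 for ATOX1, COX17 and CCS and of 0.210 and 0.499 for ATP7A and ATP7B. Over 11434 genes the level of libraries 25 and 32 changed by -0.43 and -0.44 log2 units per doubling of transcript length. This is against the mean of the other 2 libraries of the condition. Library 11 of wt -SG carbo leaned the same way, by -0.164, with ATP7A at 0.446 and ATOX1 at 1.26 times the mean of its 2 companions. SLC47A1, with 3280 bases, was close to its companions in libraries 25 and 32, at 0.927 and 0.977, whereas LRRC8D, with 3950, was at 0.743 and 0.791 and LRRC8A, with 4334, at 0.663 and 0.636. Comparisons with cis SSP cells are therefore given with all libraries and without libraries 25 and 32. The comparison that uses library 11 is given with and without it for the members.

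**Figure D1:**
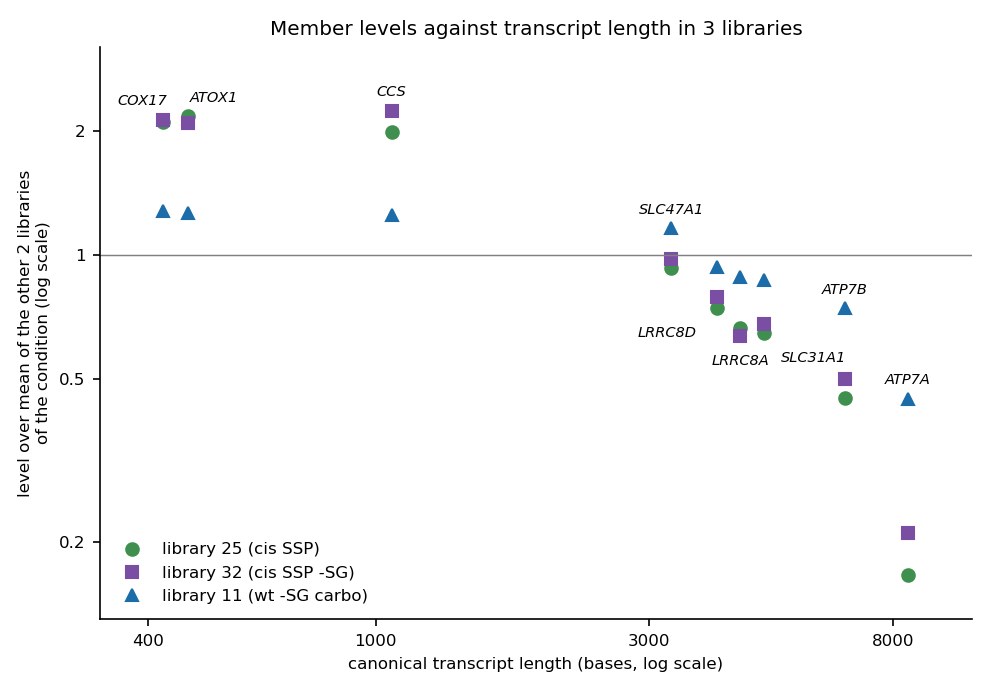
Level of the 9 tested members in libraries 25, 32 and 11, divided by the mean of the other 2 libraries of the condition (y axis, log scale), against the length of the canonical transcript in bases (x axis, log scale). The 3 members with transcripts of 426 to 1066 bases lie near 2 in libraries 25 and 32, and ATP7A, with 8492 bases, lies at 0.166 and 0.21.

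Per kilobase of transcript, ATOX1 was the most abundant member in untreated wt cells, at 71.7 ± 3.66 CPM per kilobase (SD, n = 3). COX17 and SLC31A1 followed at 33.2 ± 1.80 and 32.2 ± 0.795, then CCS at 21.1 ± 1.28, LRRC8A at 16.1 ± 0.254 and LRRC8D at 12.4 ± 0.413. COX17 and SLC31A1 thus did not differ beyond their spread. SLC47A1 at 5.82 ± 0.377 and ATP7B at 5.29 ± 0.153 came next, ATP7A was at 0.608 ± 0.0609, and SLC31A2 was at 0.136 ± 0.0436. In cis cells ATOX1 again came first, at 68.0 ± 1.89, and SLC47A1, at 12.5 ± 0.363, stood above LRRC8D, at 9.10 ± 0.308. The canonical transcript was taken as the length, and which isoform the cells used was not tested.

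**Figure D2:**
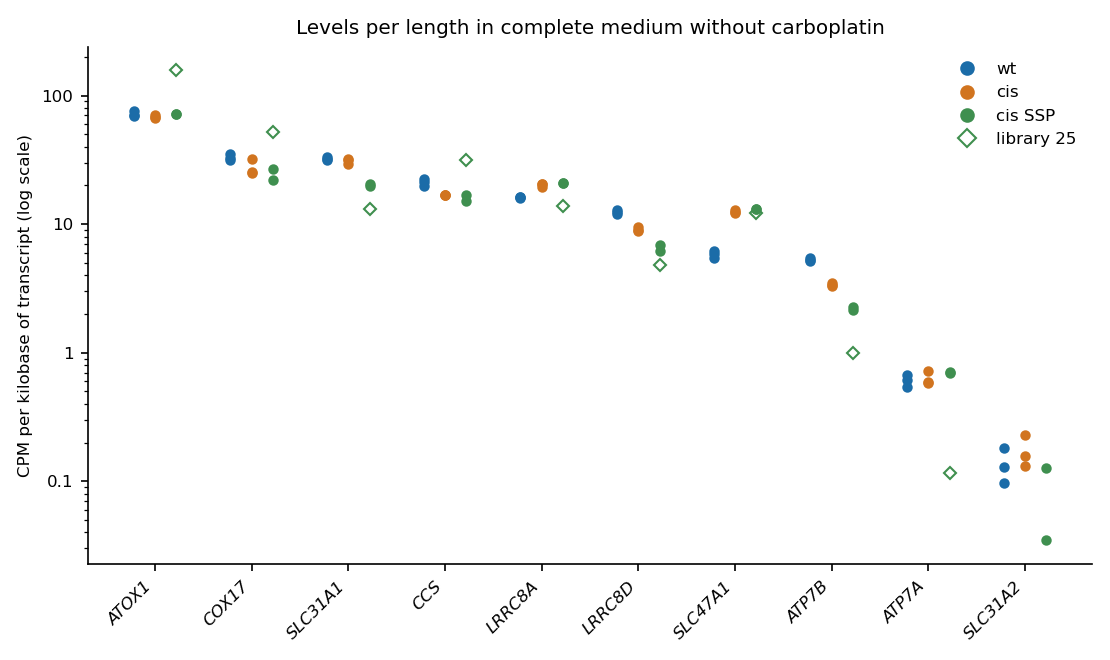
Levels of the 10 members per kilobase of canonical transcript (y axis, CPM per kilobase, log scale) in the 3 libraries each of wt, cis and cis SSP cells in complete medium without carboplatin, with library 25 as an open diamond and libraries with 0 counts left off. ATOX1 lies highest, at 71.7 on average in wt, and ATP7A and SLC31A2 lie lowest, at 0.608 and 0.136.

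SLC31A2, a low-affinity relative of SLC31A1 linked to copper release from intracellular stores, had 0 to 7 counts per library and was not tested in any comparison. Its 3 wt libraries held 3, 4 and 6 counts, the cis libraries 6, 5 and 4, and the cis SSP libraries 0, 1 and 4. The 3 wt -SG libraries held 1, 0 and 0 counts and the wt carbo libraries 7, 6 and 6. The cis -SG libraries held 2, 6 and 6 counts and the cis SSP -SG libraries 1, 0 and 1, which did not overlap. Summed over the 3 libraries of a condition, the cis conditions held 14 to 15 counts and the cis SSP conditions 2 to 7. The gene lies at chr9:115913256-115926420 on the plus strand (GRCh37) and shares 1582 of its 2473 exon bases with FKBP15 on the opposite strand, which had a mean of 845 counts. The strand setting of the counting and its handling of reads on shared bases are not stated. Whether the overlap lowered or raised these few counts was therefore not settled.

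**Figure D3:**
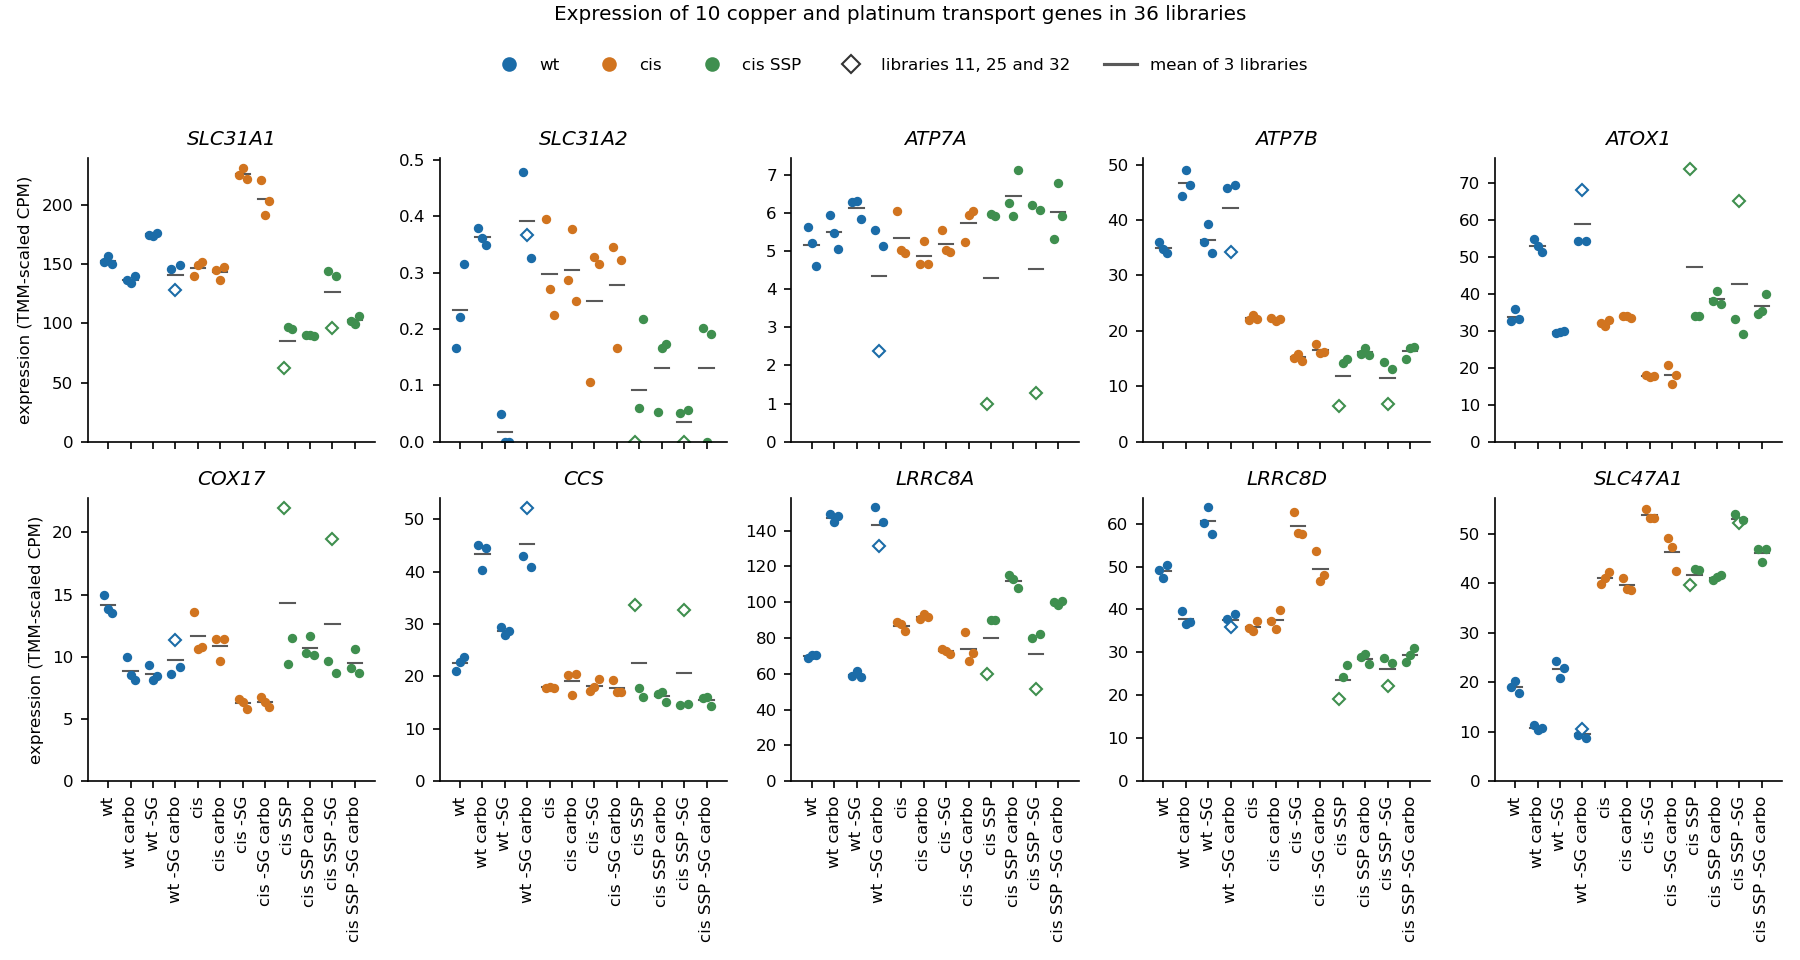
Level of each of the 10 members (y axis, TMM-scaled CPM, from 0) in all 36 libraries, grouped by the 12 conditions (x axis). Points are libraries, coloured by line, grey bars are condition means, and open diamonds are libraries 11, 25 and 32. LRRC8A is highest in the wt libraries with carboplatin (132 to 153 CPM), SLC31A1 in cis -SG (222 to 232 CPM), and SLC47A1 lies at 38.7 to 55.0 CPM in cis and cis SSP libraries and at 8.80 to 24.2 CPM in wt libraries.

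The comparison of cis with wt cells asks how the transport genes differ between resistant and sensitive cells in complete medium without drug. The exporter SLC47A1 was about 2 times as high in cis cells, and the channel subunit LRRC8A was moderately higher. The copper exporter ATP7B, the channel subunit LRRC8D and the chaperones CCS and COX17 were lower, and SLC31A1 was lower by a small margin. Of the 9 members tested, 2 were higher and 5 lower, beside 39.4% and 39.1% of the 14431 genes tested (78.5% called in all). The median change of the members was -0.11 on the log2 scale, against 0.00 over all genes, and the median absolute change was 0.32, against 0.44. The share of members called, 7 of 9, was thus close to the background. With 1 fit over all 36 libraries, 4 members were called, and SLC31A1 (adjusted p = 0.574), COX17 (0.291) and CCS (0.201) were not.

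On the uptake side, SLC31A1 stood at 152, 158 and 150 CPM in wt and 140, 149 and 152 in cis, and the groups overlapped. The fitted difference of -0.09 ± 0.03 was called (adjusted p = 0.00593), but it is a 1.07-fold difference, and it was lost without the first cis library, number 13 (adjusted p = 0.0668). LRRC8A stood at 68.6, 70.6 and 70.5 CPM in wt and 88.8, 88.1 and 83.8 in cis, with no overlap, a difference of 0.28 ± 0.04 (adjusted p = 8.52e-09). LRRC8D, which together with LRRC8A forms the channels that pass platinum drugs, went the other way. It stood at 49.1, 47.2 and 50.5 CPM in wt against 35.6, 34.9 and 37.3 in cis, every cis library being lower (-0.48 ± 0.05, adjusted p = 4.11e-12). The pair of channel subunits therefore shifted in opposite directions.

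Among the chaperones, CCS stood at 21.03, 22.8 and 23.7 CPM in wt and 17.9, 18.1 and 17.9 in cis, a difference of -0.36 ± 0.07 (adjusted p = 6.06e-06) without overlap. COX17 fell by 0.32 on the log2 scale with a standard error of 0.09 (adjusted p = 0.00121), and its groups overlapped, at 15, 13.9 and 13.5 CPM against 13.6, 10.6 and 10.8. ATOX1 was at 32.5, 35.7 and 33.1 CPM in wt and 31.9, 31.2 and 32.99 in cis and was not called (-0.11 ± 0.05, adjusted p = 0.0647). For export, ATP7B stood at 35.98, 34.7 and 33.99 CPM in wt and 21.9, 22.9 and 22.2 in cis. These groups did not overlap, and the difference was -0.67 ± 0.06 (adjusted p = 2.06e-14). ATP7A, at 4.62 to 5.64 CPM in wt and 4.96 to 6.07 in cis, was not called (0.01 ± 0.13, adjusted p = 0.929). SLC47A1 stood at 19.1, 20.3 and 17.8 CPM in wt and 39.9, 41.0 and 42.2 in cis, every cis library being higher, a rise of 1.07 ± 0.06 (adjusted p = 3.61e-21) or 2.10-fold.

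The difference between the lines depended on the medium and drug for several members. SLC47A1 was higher in cis than in wt in each of the 4 settings without overlap, by 2.15 times in complete medium, 3.65 with carboplatin, 2.37 without serine and glycine and 4.85 with both. ATP7B was lower in cis in all 4, wt means being 1.56, 2.11, 2.40 and 2.54 times the cis means in the same order. CCS was also lower in cis in all 4, by 1.25, 2.28, 1.57 and 2.55 times. LRRC8A changed sides: cis cells had 1.24 times the wt level in complete medium and 1.22 times without serine and glycine, whereas wt cells had 1.60 and 1.93 times the cis level once carboplatin was present, again without overlap. With carboplatin, 5 of the 9 members had library ranges that did not overlap between cis and wt, and in complete medium without drug 5 did as well, beside 84.2% and 81.1% of genes with a mean of at least 1 CPM. Without serine and glycine 8 members had separate ranges, and with both treatments 8, beside 83.3% and 76.6% of genes. The ratios and ranges with both treatments include library 11 of wt -SG carbo. In that library ATP7B was at 0.741, CCS at 1.25, LRRC8A at 0.882 and SLC47A1 at 1.16 times the mean of its companions. The same ratios and ranges include libraries 23 and 24 of cis -SG carbo, in which 17.9% and 14.9% of counts fell on no feature.

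With carboplatin in wt cells 8 of the 9 tested members were called, beside 77.8% of all genes tested. The copper exporter ATP7B, the chaperones ATOX1 and CCS and the channel subunit LRRC8A were higher with the drug, and SLC31A1, COX17, LRRC8D and SLC47A1 were lower. That makes 4 higher and 4 lower of the 9 tested, beside 38.9% and 39.0% of the 14639 genes tested (77.8% called in all). The median absolute change of the members was 0.65 on the log2 scale, against 0.42 over all genes. ATP7A was not called (0.12 ± 0.13, adjusted p = 0.399), and SLC31A1 lost its call with 1 fit over all 36 libraries (adjusted p = 0.247).

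LRRC8A had the largest change of the members, from 68.6, 70.6 and 70.5 CPM without drug to 149, 145 and 148 with it, 1.09 ± 0.03 on the log2 scale (adjusted p = 4.63e-168) or 2.13-fold. Its partner LRRC8D went from 49.1, 47.2 and 50.5 CPM to 39.5, 36.6 and 37.1, a change of -0.36 ± 0.05 (adjusted p = 8.87e-14). Neither gene had overlapping groups. SLC31A1 went from 150 to 158 CPM down to 134 to 140, also without overlap, a small change of -0.14 ± 0.03 (adjusted p = 2.55e-07).

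The chaperones split. CCS went from 21.03, 22.8 and 23.7 CPM to 45.2, 40.4 and 44.5 (0.96 ± 0.05, adjusted p = 1.51e-60), and ATOX1 from 32.5, 35.7 and 33.1 to 54.8, 52.8 and 51.3 (0.67 ± 0.05, adjusted p = 2.61e-41). COX17, the mitochondrial one, went from 15, 13.9 and 13.5 CPM down to 9.96, 8.57 and 8.15 (-0.65 ± 0.09, adjusted p = 9.11e-13). In all 3 chaperones the groups were separate. Of the exporters, ATP7B went from 35.98, 34.7 and 33.99 CPM to 44.4, 49.1 and 46.4, a change of 0.43 ± 0.05 (adjusted p = 1.54e-18). SLC47A1 went from 19.1, 20.3 and 17.8 CPM to 11.4, 10.4 and 10.8, a change of -0.79 ± 0.08 (adjusted p = 8.07e-23), again without overlap.

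The promoters of members that rose together in wt cells with carboplatin are shown to let their sequences be compared, with that of SLC31A1, which fell. RefSeq promoter entries (GRCh38.p14) were found for 8 of the 10 members. SLC31A2 and SLC47A1 had none. Each line gives the 250 bases before the first listed start site, 5′ to 3′ on the strand of the gene, and capitals mark GC boxes (GGGCGG on either strand) and cores of metal response elements (TGCACNC or TGCGCNC on either strand), the element bound by the metal-sensing factor MTF1.
LRRC8A, chr9:128881883-128882132, plus strand: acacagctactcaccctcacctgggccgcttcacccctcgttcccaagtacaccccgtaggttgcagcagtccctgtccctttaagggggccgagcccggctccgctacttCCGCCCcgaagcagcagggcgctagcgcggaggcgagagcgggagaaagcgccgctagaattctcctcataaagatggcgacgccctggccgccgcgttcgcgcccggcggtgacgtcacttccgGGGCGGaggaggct
CCS, chr11:66592935-66593184, plus strand: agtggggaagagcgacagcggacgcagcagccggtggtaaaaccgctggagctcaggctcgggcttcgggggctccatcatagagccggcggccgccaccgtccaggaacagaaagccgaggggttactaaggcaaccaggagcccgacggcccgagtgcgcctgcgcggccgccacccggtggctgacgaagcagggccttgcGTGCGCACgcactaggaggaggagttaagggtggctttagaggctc
ATOX1, chr5:151758632-151758881, minus strand: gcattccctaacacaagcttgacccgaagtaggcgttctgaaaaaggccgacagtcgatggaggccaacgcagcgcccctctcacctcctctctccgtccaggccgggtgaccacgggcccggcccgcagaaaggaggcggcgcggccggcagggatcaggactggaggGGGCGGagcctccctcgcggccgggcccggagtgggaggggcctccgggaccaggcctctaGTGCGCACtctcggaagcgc
SLC31A1, chr9:113221294-113221543, plus strand: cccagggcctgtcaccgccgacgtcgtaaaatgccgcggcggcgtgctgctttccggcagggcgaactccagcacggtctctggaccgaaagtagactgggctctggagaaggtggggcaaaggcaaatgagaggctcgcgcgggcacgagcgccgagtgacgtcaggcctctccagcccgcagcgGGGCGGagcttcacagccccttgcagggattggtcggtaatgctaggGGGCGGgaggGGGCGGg
The copper chaperone promoters of CCS and ATOX1 each held the letters GTGCGCAC, which match the metal response core on both strands, 2 overlapping matches of the same stretch. LRRC8A and SLC31A1 held no such core in this window, and had 2 and 3 GC boxes, against 1 in ATOX1 and 0 in CCS. Of all 35116 promoters of this length, 24.8% held a metal response core and 42.6% a GC box, which is the background for these matches. ATP7B, which also rose, had 3 GC boxes and no core in its first entry, and 3 GC boxes and 2 cores in its second, which overlaps the first. Members that fell held cores as well, COX17 with 1 in each of its 2 entries and LRRC8D with 1 in its second. A match is a description of the letters and not a binding site, and binding was not measured here.

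In cis cells the same drug changed little. Of the 9 members tested, 1 was called, as higher, beside 20.1% of the 13458 genes tested (9.27% higher and 10.8% lower). It was LRRC8A, at 88.8, 88.1 and 83.8 CPM without carboplatin and 90.6, 93.2 and 92.0 with it, with no overlap but a change of only 0.11 ± 0.04 (adjusted p = 0.0437). This call is weak, since it was lost with any of the 6 libraries left out, with DESeq2 (adjusted p = 0.229) and with 1 fit over all 36 libraries (0.899). The other 8 members had fitted changes between -0.11 and 0.12. The median absolute change of the members was 0.09, against 0.10 over all genes.

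The responses of cis and wt cells to carboplatin were compared directly by an interaction term, in which 8 of the 9 members were called, beside 57.6% of 15300 genes (30.3% with a more positive response in cis and 27.2% with a more negative one). The response of LRRC8A in cis minus that in wt was -0.98 ± 0.05 on the log2 scale (adjusted p = 4.38e-26). That of CCS differed by -0.83 ± 0.09 (adjusted p = 2.75e-11), that of ATOX1 by -0.56 ± 0.07 and that of ATP7B by -0.42 ± 0.08. The members that fell in wt cells had positive differences, of 0.78 ± 0.09 for SLC47A1 (adjusted p = 5.95e-11), 0.60 ± 0.14 for COX17, 0.46 ± 0.07 for LRRC8D and 0.14 ± 0.04 for SLC31A1. The last of these was lost without library 18 of cis carbo (adjusted p = 0.0653). ATP7A was not called (-0.22 ± 0.18, adjusted p = 0.317). For each of the 8, the fitted response of wt cells was larger in size than that of cis cells. With 1 fit over all 36 libraries 4 of the 8 interactions were lost, those of SLC31A1, ATP7B, ATOX1 and COX17 (adjusted p = 0.578, 0.199, 0.193 and 0.218).

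**Figure D4:**
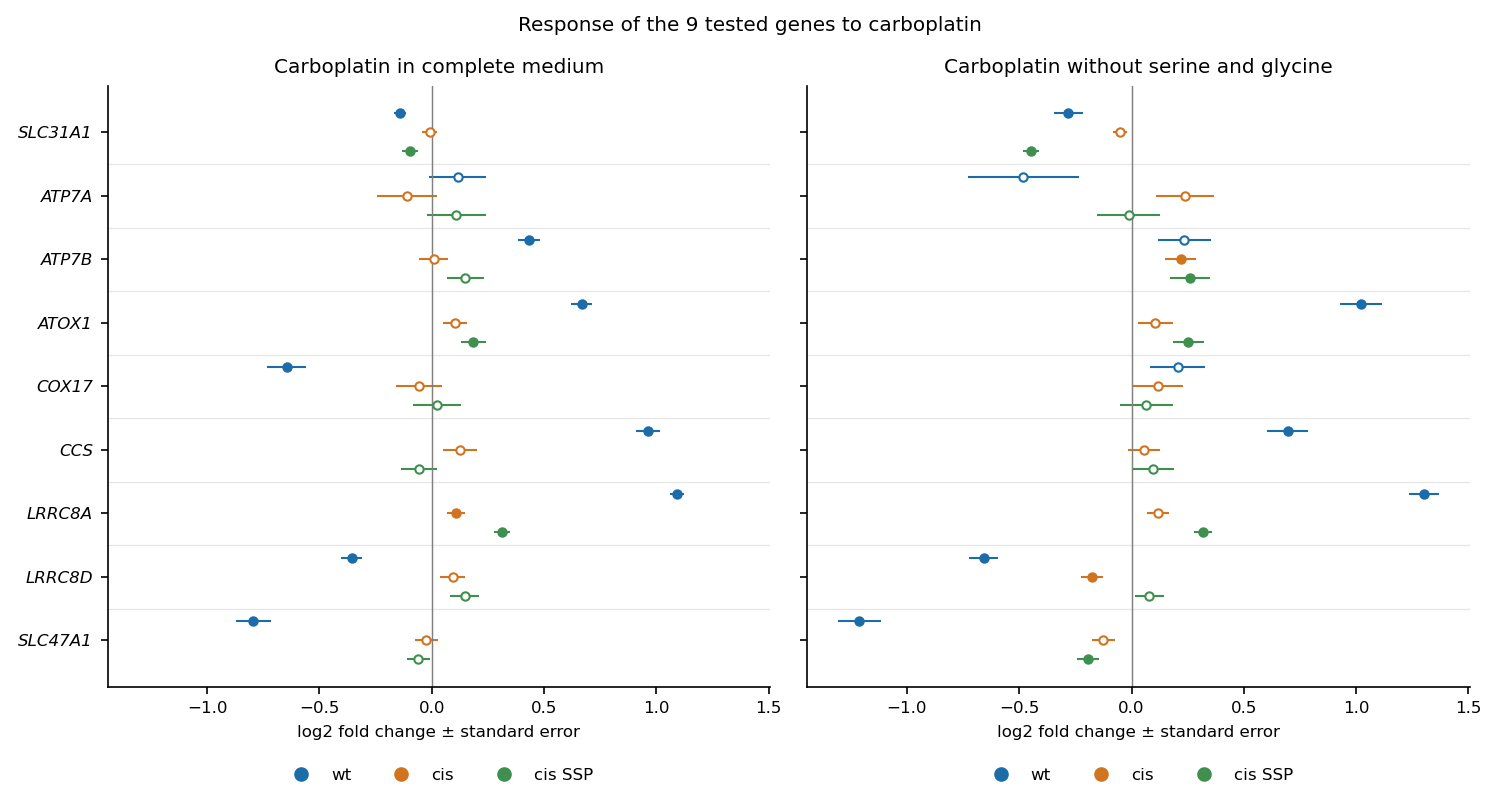
Log2 fold change with standard error (x axis) of the 9 tested members with carboplatin, in complete medium (left) and without serine and glycine (right), for wt, cis and cis SSP cells. Filled points are called at an adjusted p under 0.05, open points are not, and cis SSP values are from fits without libraries 25 and 32. LRRC8A lies at 1.09 and 1.30 in wt cells and at 0.11 and 0.12 in cis cells, and SLC47A1 at -0.79 and -1.21 in wt cells.

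In cis SSP cells none of the 9 members was called for carboplatin with all libraries by edgeR, beside 2.72% of the 13885 genes tested (1.97% higher and 0.749% lower). DESeq2 called 0 as well, and 1 had an unadjusted p under 0.05 with edgeR. That was LRRC8A, at 59.7, 90.2 and 89.9 CPM without the drug and 115, 113 and 108 with it, the lowest value being that of library 25. Without library 25 the comparison called 3 members, beside 41.2% of genes. LRRC8A rose by 0.31 ± 0.04 (adjusted p = 1.30e-07) and ATOX1 by 0.19 ± 0.06 (adjusted p = 0.00944), and SLC31A1 fell by 0.10 on the log2 scale (adjusted p = 0.0384). The ATOX1 difference was -0.29 ± 0.32 with library 25 in, and that of SLC31A1 was 0.08 ± 0.18, so that both signs changed with that library.

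Serine and glycine deprivation raised SLC31A1 in both wt and cis cells. In wt cells SLC31A1, CCS, LRRC8D and SLC47A1 were higher and ATOX1, COX17 and LRRC8A lower, 4 and 3 of the 9 tested, beside 24.1% and 25.1% of the 14284 genes tested (49.2% called in all). In cis cells SLC31A1, LRRC8D and SLC47A1 were higher and ATP7B, ATOX1, COX17 and LRRC8A lower, 3 and 4 of 9, beside 37.6% and 37.4% of 14122 genes (75.0% in all). ATP7A was called in neither line, at 0.27 ± 0.12 in wt (adjusted p = 0.0603) and -0.01 ± 0.13 in cis (adjusted p = 0.967). With 1 fit over all 36 libraries 3 members were called in wt, and SLC31A1 (adjusted p = 0.205), ATOX1 (0.665), CCS (0.299) and LRRC8A (0.185) were not.

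SLC31A1, the main copper importer, went from 152, 158 and 150 CPM to 175, 174 and 177 in wt cells, a change of 0.21 ± 0.03 (adjusted p = 4.66e-06). In cis cells it went from 140, 149 and 152 CPM to 226, 232 and 222, a change of 0.65 ± 0.03 (adjusted p = 4.54e-23). Both pairs of groups were separate, and cis -SG was the condition with the highest SLC31A1 of all 12. The interaction gave a response larger in cis than in wt cells by 0.46 ± 0.04 (adjusted p = 1.14e-11). LRRC8D also rose in both, from 49.1, 47.2 and 50.5 CPM to 60.2, 63.8 and 57.5 in wt (0.32 ± 0.05, adjusted p = 7.47e-06) and from 35.6, 34.9 and 37.3 to 62.8, 57.9 and 57.5 in cis (0.75 ± 0.05, adjusted p = 2.92e-18). Without serine and glycine the LRRC8D levels of the lines overlapped, at a ratio of 0.982. LRRC8A moved the other way by similar amounts in both lines, -0.22 ± 0.04 in wt and -0.23 ± 0.04 in cis, and its interaction was 0.01 ± 0.05 (adjusted p = 0.939).

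The chaperones ATOX1 and COX17 fell in both lines on deprivation. ATOX1 went from 32.5, 35.7 and 33.1 CPM to 29.4, 29.6 and 29.8 in wt (-0.18 ± 0.05, adjusted p = 0.00837, lost without library 2 at 0.0574) and from 31.9, 31.2 and 32.99 to 18.1, 17.6 and 17.7 in cis (-0.82 ± 0.06, adjusted p = 3.53e-16). The change of ATOX1 was larger in cis cells (interaction -0.63 ± 0.08, adjusted p = 1.23e-08). COX17 changed by -0.69 ± 0.09 in wt and -0.86 ± 0.11 in cis, and its interaction was not called (-0.15 ± 0.14, adjusted p = 0.405). CCS rose in wt cells, from 21.03, 22.8 and 23.7 CPM to 29.4, 27.99 and 28.6 (0.36 ± 0.06, adjusted p = 4.52e-05), and was at 17.2 to 19.4 CPM in cis -SG against 17.9 to 18.1 in cis.

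For the exporters, ATP7B went from 21.9, 22.9 and 22.2 CPM to 15.2, 15.9 and 14.5 in cis cells (-0.53 ± 0.07, adjusted p = 4.54e-09), and was at 36.03, 39.4 and 34 CPM in wt -SG, which overlapped with wt. Its interaction was -0.60 ± 0.09 (adjusted p = 2.99e-07). SLC47A1 went from 19.1, 20.3 and 17.8 CPM to 24.2, 20.8 and 22.9 in wt (0.26 ± 0.07, adjusted p = 0.00445) and from 39.9, 41.0 and 42.2 to 55.0, 53.1 and 53.1 in cis (0.42 ± 0.05, adjusted p = 1.05e-10). The groups were separate in both lines and the interaction was not called (0.17 ± 0.08, adjusted p = 0.0756). In all, 5 of 9 members were called in the interaction of line and deprivation, beside 54.0% of 15418 genes: SLC31A1, ATP7B, ATOX1, CCS and LRRC8D. With 1 fit over all 36 libraries SLC31A1, ATOX1 and CCS lost this call (adjusted p = 0.0538, 0.106 and 0.421).

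In cis SSP cells none of the 9 members was called by edgeR on deprivation with all libraries, beside 0.0218% of 13736 genes, nor by DESeq2, and 1, SLC47A1, had an unadjusted p under 0.05 with edgeR. Without libraries 25 and 32, 3 members were called, beside 35.9% of genes. SLC31A1 stood at 97.2 and 95.0 CPM with serine and glycine and 144 and 140 without them (0.56 ± 0.04, adjusted p = 3.52e-12), and library 25 was at 62.1 and library 32 at 96.2. SLC47A1 was at 39.7, 42.9 and 42.6 CPM against 54.0, 52.2 and 52.8, separate even with every library in (0.31 ± 0.05 without libraries 25 and 32, adjusted p = 4.26e-05). LRRC8A was lower, by -0.16 ± 0.04 (adjusted p = 0.00516). ATOX1, COX17 and LRRC8D were at -0.13 ± 0.07, -0.20 ± 0.12 and 0.12 ± 0.07 and were not called. Whether these responses differ from those of cis cells was not tested.

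**Figure D5:**
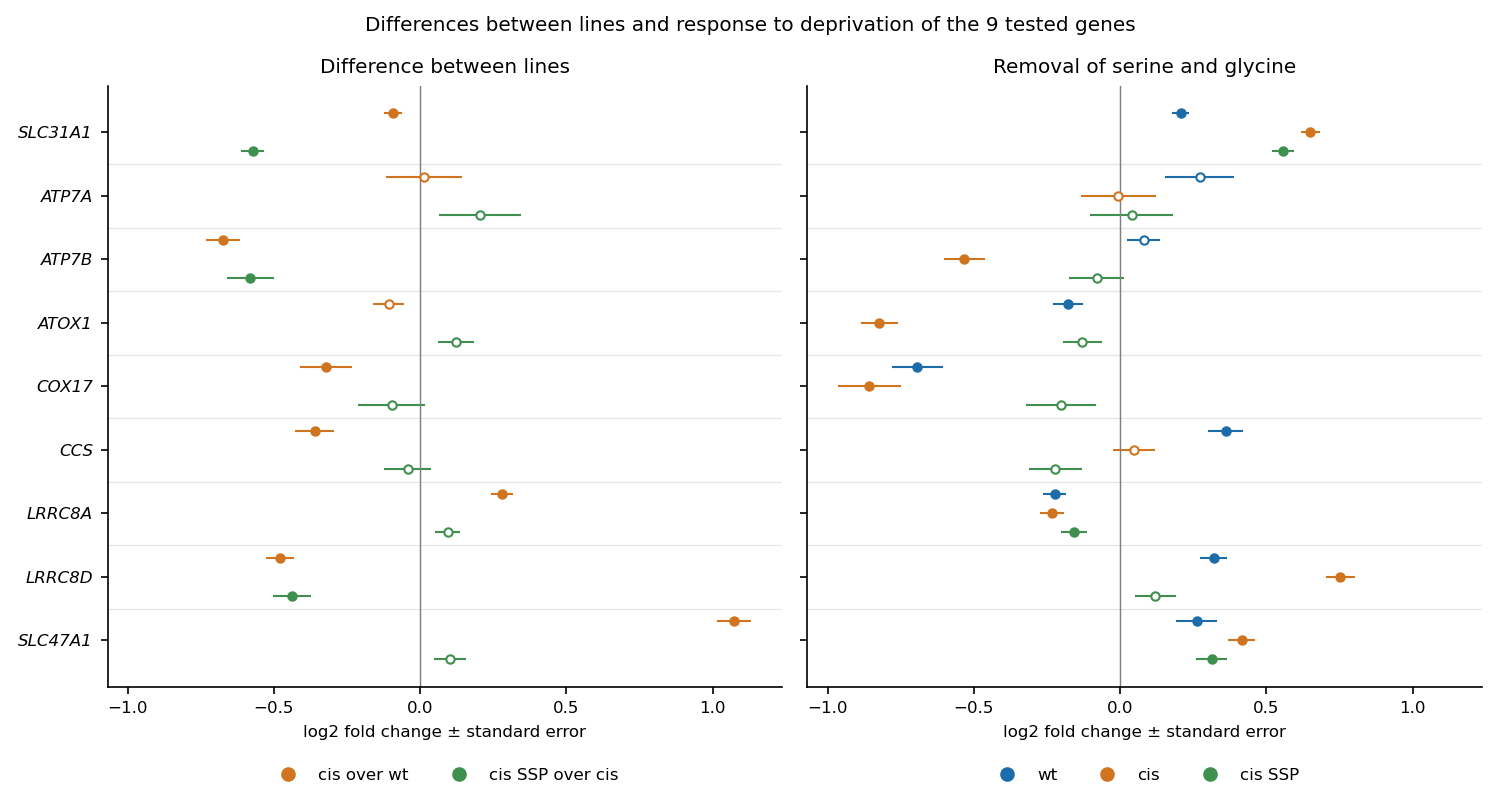
Log2 fold change with standard error (x axis) of the 9 tested members between lines in complete medium (left: cis over wt, cis SSP over cis) and on removal of serine and glycine (right: wt, cis and cis SSP cells). Filled points are called at an adjusted p under 0.05, open points are not, and values that involve cis SSP are from fits without libraries 25 and 32. SLC31A1 lies at 0.21, 0.65 and 0.56 on deprivation, and SLC47A1 at 1.07 between cis and wt.

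The cis SSP line was compared with the cis line from which it grew. SLC31A1 and LRRC8D, both on the uptake side, were lower in cis SSP cells, and these were the 2 members called, beside 29.1% of the 13714 genes tested (15.8% higher and 13.3% lower). SLC31A1 stood at 140, 149 and 152 CPM in cis and 62.1, 97.2 and 95.0 in cis SSP (-0.77 ± 0.19, adjusted p = 0.0280). LRRC8D stood at 35.6, 34.9 and 37.3 CPM against 19.1, 24.3 and 27.1 (-0.59 ± 0.15, adjusted p = 0.0305). Every cis SSP library was below every cis library for both genes. Both calls were lost when any 1 of the 3 cis libraries was left out, with adjusted p between 0.0778 and 0.110, and that of LRRC8D also without library 26 (0.0642). Without library 25 the differences were -0.57 ± 0.04 (adjusted p = 6.20e-15) and -0.44 ± 0.07 (adjusted p = 4.43e-07).

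Without library 25, 3 members were called, beside 65.4% of genes, ATP7B being added. It stood at 21.9, 22.9 and 22.2 CPM in cis and 6.50, 14.1 and 14.9 in cis SSP, lower in every library. The difference was -0.88 ± 0.30 with library 25 (adjusted p = 0.0726) and -0.58 ± 0.08 without it (adjusted p = 9.60e-08). ATP7B thus had a lower level in cis than in wt cells, and a lower one again in cis SSP cells once that library was left out. The chaperones ATOX1, COX17 and CCS were at 0.57, 0.31 and 0.34 with library 25 and at 0.12, -0.10 and -0.04 without it, called in neither case. SLC47A1 stayed near the cis level, at 39.7, 42.9 and 42.6 CPM against 39.9, 41.0 and 42.2 (0.05 ± 0.09 with library 25, adjusted p = 0.718).

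In the other settings, the levels of cis SSP and cis cells are given as ratios of means without a test. The cis level of SLC31A1 was 1.73 times the cis SSP level in complete medium, 1.59 times with carboplatin, 1.79 times without serine and glycine and 2.00 times with both. For LRRC8D these ratios were 1.53, 1.32, 2.27 and 1.69, and the library ranges of both genes were separate in all 4 settings. ATOX1 was higher in cis SSP, by 1.47, 1.14, 2.39 and 2.03 times. All ratios and ranges without carboplatin include libraries 25 and 32. Those with both treatments include libraries 23 and 24 of cis -SG carbo, in which 17.9% and 14.9% of counts fell on no feature. Without library 25 the cis SSP means of SLC31A1, LRRC8D and ATOX1 were 96.1, 25.7 and 33.9 CPM, against 146.9, 35.9 and 32.05 in cis. Without library 32 the cis SSP -SG means were 142.1, 28.15 and 31.1 CPM, against 226.6, 59.4 and 17.8 in cis -SG. LRRC8A was higher in cis SSP with carboplatin, by 1.22 times, and with carboplatin in deprived medium, by 1.35 times, both without overlap. With carboplatin 6 of 9 members had separate ranges, beside 73.1% of genes with a mean of at least 1 CPM, and in complete medium without it 4 did, beside 57.1%. Without serine and glycine the count was 5, beside 64.1%, and with both treatments 6, beside 74.5%.

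The last comparisons added carboplatin to cells already without serine and glycine. In wt cells LRRC8A, ATOX1 and CCS were again higher and SLC47A1, LRRC8D and SLC31A1 lower, 3 and 3 of 9, beside 34.3% and 34.6% of 14467 genes (68.9% called in all). LRRC8A went from 58.6, 61.3 and 58.1 CPM to 153, 132 and 145 (1.30 ± 0.07, adjusted p = 2.20e-07), and ATOX1 from 29.4, 29.6 and 29.8 to 54.1, 68.1 and 54.2 (1.02 ± 0.09, adjusted p = 7.63e-06). The highest ATOX1 and the lowest LRRC8A value were those of library 11. SLC47A1 went from 24.2, 20.8 and 22.9 CPM to 9.32, 10.5 and 8.80, a change of -1.21 ± 0.10 (adjusted p = 3.30e-06). LRRC8D changed by -0.66 ± 0.06, CCS by 0.69 ± 0.09 and SLC31A1 by -0.28 ± 0.07.

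Without library 11, 7 members were called, beside 73.3% of genes, ATP7B being added. ATP7B was at 45.8, 34.2 and 46.4 CPM against 36.03, 39.4 and 34 in wt -SG, the low value being library 11, and its change went from 0.24 ± 0.12 (adjusted p = 0.101) to 0.36 ± 0.06 (adjusted p = 6.83e-05). LRRC8A was at 1.36 ± 0.04, ATOX1 at 0.90 ± 0.05 and SLC47A1 at -1.29 ± 0.10 without that library. LRRC8D was then at -0.63 ± 0.06, CCS at 0.58 ± 0.06 and SLC31A1 at -0.22 ± 0.03. COX17, which fell with carboplatin in complete medium, was not called here (0.21 ± 0.12 with library 11 and 0.07 ± 0.11 without it), and whether its responses in the 2 media differ was not tested. Its level in wt -SG, at 8.10 to 9.38 CPM, overlapped with that in wt carbo, at 8.15 to 9.96.

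In deprived cis cells 2 of 9 members were called, 1 higher and 1 lower, beside 22.5% of 14476 genes (10.9% higher and 11.6% lower). ATP7B was at 15.2, 15.9 and 14.5 CPM without and 17.65, 15.96 and 16.2 with carboplatin (0.22 ± 0.07, adjusted p = 0.0392), and LRRC8D at 62.8, 57.9 and 57.5 against 53.7, 46.6 and 48.0 (-0.18 ± 0.05, adjusted p = 0.0197). The groups were separate for both genes. Neither gene was called by DESeq2, ATP7B lost its call with any 1 of the 6 libraries left out (adjusted p from 0.0529 to 0.141), LRRC8D lost it without library 19 or 24 (0.0915 and 0.0948), and the count of called members ran from 0 to 3 as single libraries were left out. With 1 fit over all 36 libraries both calls were lost (adjusted p = 0.62 for ATP7B and 0.201 for LRRC8D). The fitted changes rest on scaling over these 6 libraries and the CPM on scaling over all 36, and as CPM without TMM scaling ATP7B was at 15.7, 16.02 and 14.8 against 18.4, 18.4 and 18.3. Libraries 23 and 24 of cis -SG carbo had no-feature shares of 17.9% and 14.9%, against at most 9.31% in the other libraries. Without both of them, an alternative chosen after the data were seen, ATP7B was at 0.23 (adjusted p = 0.147) and LRRC8D at -0.13 (0.174), and LRRC8A was called (0.22, adjusted p = 0.00195). The single cis -SG carbo library left is then assumed to vary like the others. LRRC8A, at 0.12 ± 0.05, was not called (adjusted p = 0.0898). In deprived cis SSP cells no member was called by edgeR with all libraries, beside 1.47% of 13541 genes (1.17% higher and 0.295% lower), nor by DESeq2, and 1, LRRC8A, had an unadjusted p under 0.05. Without library 32, 5 members were called, beside 41.1% of genes. SLC31A1 was at 144 and 140 CPM without and 102, 99.7 and 106 with carboplatin (-0.45 ± 0.04, adjusted p = 4.42e-09). LRRC8A was at 80.0 and 82.4 against 100.1, 98.4 and 100.6 CPM (0.32 ± 0.04, adjusted p = 2.15e-06). ATP7B, ATOX1 and SLC47A1 were at 0.26 ± 0.09, 0.25 ± 0.07 and -0.19 ± 0.05.

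Over the 12 conditions, SLC47A1 had the widest range of the 9, its highest mean being 53.7 CPM in cis -SG and its lowest 9.55 in wt -SG carbo, 5.63 times apart. ATP7B followed at 4.06 times, from 46.6 CPM in wt carbo to 11.5 in cis SSP -SG, or 3.53 times by medians, which libraries 25 and 32 affect less. ATOX1 spanned 3.31 times, CCS 2.94, SLC31A1 2.67, LRRC8D 2.57, LRRC8A 2.48 and COX17 2.28. By medians these spans were 3.06, 3.04, 2.51, 2.48, 2.53 and 2.17 times in the same order. Along the order of condition means, 6 of the 11 neighbouring pairs overlapped for SLC47A1 and for LRRC8A, 7 for SLC31A1, 8 for ATOX1 and LRRC8D, 9 for ATP7B and 10 for CCS and COX17. ATP7A spanned 1.5 times and all 11 of its neighbouring pairs overlapped.

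The genes with the most similar pattern over the 12 condition means were found by Pearson's r of log2 CPM, for the 8 members whose means differed at least 2 times. They were SLC43A2 for LRRC8A (r = 0.990), GPR63 for LRRC8D (0.982), LZTFL1 for SLC31A1 (0.964), SEC31A for ATP7B (0.983), INPP5J for SLC47A1 (0.985), COA3 for ATOX1 (0.985), JUND for CCS (0.964) and SNRPG for COX17 (0.966). Without libraries 25 and 32 these values were 0.984, 0.982, 0.957, 0.977, 0.986, 0.982, 0.946 and 0.942. Each is the highest of many genes over 12 points that share libraries and, for short transcripts, the trend over length, so it is a description only.

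Other genes of copper handling were followed in a list of 27, of which 26 were matched. Between cis and wt, 12 of the 23 tested were higher and 7 lower, 19 called beside 78.5% of all genes. FDX1, a mitochondrial ferredoxin that mediates the toxicity of copper ionophores, rose from 16.7 to 18.8 CPM in wt to 215 to 222 in cis (3.59 ± 0.04). It reached 326 to 555 CPM in cis SSP, library 25 included. CP, the secreted copper oxidase ceruloplasmin, had 599 to 631 counts in each wt library and 0 to 2 in each cis library. STEAP2, a metalloreductase, fell from 12.8 to 14.3 CPM to 0.507 to 0.858, and its relative STEAP3 rose by 1.93. The partners of the member chaperones were followed as well. SOD1, which receives copper from CCS, was higher in cis by 0.27 ± 0.03, whereas CCS was lower, and the oxidase assembly factors SCO1 and COX11, which receive it from COX17, were higher by 0.22 ± 0.04 and 0.49 ± 0.04, whereas COX17 was lower.

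With carboplatin in wt cells 8 of the 23 copper handling genes were higher and 10 lower, and in cis cells 0 and 2 of 22, beside 77.8% and 20.1% of all genes called in either direction. Among those higher in wt were MTF1, the metal-responsive transcription factor (0.75), and AP1S1, an adaptor subunit (0.73), and among those lower CUTC (-0.64) and STEAP2 (-0.61). In cis cells STEAP3 (-0.17) and SP1 (-0.15) were lower. Deprivation gave 4 higher and 10 lower of 23 in wt cells, and 5 higher and 10 lower of 22 in cis cells, beside 49.2% and 75.0% of all genes. SOD1 fell by 0.35 and 0.67 on the log2 scale, SCO1 by 0.14 and 0.30, and COX11 by 0.19 and 0.56, in wt and cis cells in turn, next to the decrease of COX17 in both. COX19, another assembly factor, was higher in both, by 0.42 and 1.06.

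With carboplatin in deprived cells, 9 of 23 were higher and 7 lower in wt cells, and 5 and 2 of 22 in cis cells, beside 68.9% and 22.5% of all genes. The wt counts include library 11. Between cis SSP and cis, 2 of 21 were higher (FDX1, 0.91, and AP1S1, 0.79) and 2 lower (PAM, -0.74, and MEMO1, -0.65), beside 29.1% of all genes. Without library 25 these 4 were at 0.63, 0.50, -0.62 and -0.47, and 4 were higher and 10 lower of 22, beside 65.4%. With carboplatin in cis SSP cells 1 of 20 was called, LOX at 1.24 (1.17 without library 25), and on deprivation or on carboplatin in deprived cis SSP cells 0 of 20 were called by edgeR, with 1 and 0 at an unadjusted p under 0.05, beside 2.72%, 0.0218% and 1.47% of all genes. Without libraries 25 and 32 the counts were 8, 9 and 7 in these 3 comparisons, of 20, 20 and 21 tested, beside 41.2%, 35.9% and 41.1%.

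Of the other LRRC8 subunits, LRRC8E had at most 8 counts in any library and was not tested. LRRC8B and LRRC8C were both lower in cis than in wt cells, LRRC8B at 18.1 to 19.3 against 55.3 to 58.5 CPM (-1.62 ± 0.05) and LRRC8C at 2.33 to 2.99 against 9.52 to 11.4 (-2.05 ± 0.13). Their fitted differences were larger in size than that of LRRC8D, and LRRC8A was higher in cis. With carboplatin in wt cells LRRC8B and LRRC8C fell by 0.26 and 0.64 on the log2 scale, with LRRC8D and against LRRC8A.

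Of the other transporters linked to platinum drugs, ABCC2, an exporter of conjugated compounds, and TMEM205, a membrane protein linked to cisplatin resistance, were tested, and SLC22A2, SLC22A3 and SLC47A2 had at most 1, 1 and 8 counts in any library. ABCC2 stood at 1.38 to 1.73 CPM in wt, 0.757 to 0.858 in cis and 11.03 to 16.99 in cis SSP. From cis to cis SSP it rose by 4.18 ± 0.24 (adjusted p = 1.40e-04), and by 4.35 without library 25. On deprivation in cis cells it rose by 2.05 ± 0.23 (adjusted p = 3.63e-11). TMEM205 was higher in cis than in wt (0.30) and rose with carboplatin in wt cells by 0.57 and in deprived wt cells by 0.82. The last value includes library 11. On deprivation in cis cells TMEM205 changed by -0.87 ± 0.08 (adjusted p = 1.69e-12). Of the metallothioneins, which bind copper and platinum, MT1E had at most 1 count in any library, and MT1X was higher in cis than in wt (1.94) and in cis SSP than in cis (1.19, and 0.76 without library 25). MT2A was higher with carboplatin in wt cells (1.46 ± 0.13) and cis cells (0.53 ± 0.12) and in deprived wt cells (3.07 ± 0.21), the difference between media not being tested. The value in deprived wt cells includes library 11. There MT2A stood at 9.59 to 13.96 CPM in wt -SG carbo against 1.03 to 1.61 in wt -SG. MT2A was at 2.93 to 3.16 CPM in wt, 4.91 to 5.79 in cis and 14.8 to 39.3 in cis SSP, library 25 included. Between cis SSP and cis it was higher by 2.12 ± 0.41, and by 1.54 ± 0.11 without library 25. On deprivation it went down in wt cells (-1.10 ± 0.20) and up in cis cells (2.08 ± 0.09), and the interaction of line and deprivation was 3.196 ± 0.21 (adjusted p = 7.77e-16).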

How the data were processed

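Total RNA libraries (SENSE kit, strand setting of the counting not given in the sources used here) of 3 lines, each with and without serine and glycine and with and without carboplatin, were sequenced as single reads. Per the study's methods the authors aligned reads with STAR to GRCh37.p13 and counted them at exons with HTSeq and GENCODE annotation, and they deposited raw counts per gene, with no normalization, for 36 libraries. The labels also name DESeq and DESeq2, without versions. Exon sharing could affect the counts of SLC31A2 and FKBP15, ATOX1 and G3BP1, COX17 and POPDC2, and ATP7A and PGK1. The 3 entries that name no gene were left out (no-feature share 4.21% to 17.9%).

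From the counts, edgeR 4.0.16 (R 4.3.3) was run with TMM scaling, its filter on low counts and robust quasi-likelihood fits on the libraries of each comparison, with Benjamini-Hochberg adjustment over all genes tested and a threshold of 0.05. The 11 pairs and 2 interaction terms were tested, and CPM levels were summarised in pandas 2.3.3. DESeq2 1.42.0, its size factors, total-count scaling, other filters, a fold threshold, 1 fit over 36 libraries, removal of the length trend and leaving out libraries were the alternatives, and the procedure was tested on simulated data. There, changes of 1 and 0.5 on the log2 scale were recovered for 100 and 97 of 100 genes in cis against wt. For the carboplatin interaction these were 100 and 85 genes, and for carboplatin in cis SSP cells 78 and 9. False calls were 6, 13 and 2 in this order. Each simulation gave all genes the same spread. Library totals were 13074937 to 20441582, and no pair of libraries differed by so little that it was counted as 1. Symbols were matched for 55538 of 57820 genes. Promoters came from RefSeq (GRCh38.p14), and coordinates of genes are in GRCh37. The members and lists were chosen with earlier results of these data known. Pathway genes named are the called ones with the largest change, at most 2 per direction, with at least 50 counts on average and no overlap, and others are given to complete a count or as partners of a member. One gene of the lists is not reported here.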

Additional observations from a re-analysis of the deposited data

Results flagged for a closer look

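By an interaction term of edgeR's quasi-likelihood test, the responses of cis and wt cells differed for 8 of the 9 tested members with carboplatin. With deprivation they differed for 5 of 9. Over all genes tested, 57.6% and 54.0% were called in these 2 interactions. With 1 fit over all 36 libraries, 4 and 2 members were called. Differences are given as the cis response minus the wt response on the log2 scale. With carboplatin the differences were -0.9785 for LRRC8A, -0.8315 for CCS, -0.5568 for ATOX1 and -0.42 for ATP7B. They were 0.7761 for SLC47A1, 0.595 for COX17, 0.4553 for LRRC8D and 0.1397 for SLC31A1. The negative values belong to the members that were higher with the drug in wt cells and the positive ones to those that were lower. With deprivation they were 0.4593 for SLC31A1, 0.448 for LRRC8D, -0.2951 for CCS, -0.5963 for ATP7B and -0.6283 for ATOX1.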

How the results depend on the processing

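No paired analysis was possible because the labels give no replicate numbers within a condition. No called change of a member turned direction under any alternative run: 344 values kept their call and 31 lost it, and with 1 library left out 372 kept it and 24 lost it. All reversals were of changes that were not called with all libraries, but those of ATOX1 and SLC31A1 for carboplatin in cis SSP without library 25, and of ATOX1 in deprived cis SSP without library 32, were called in the opposite direction.

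With 1 fit over 36 libraries the members called were 4 for cis against wt, 4 for cis SSP against cis, 0 and 2 for carboplatin in cis and cis SSP, 3 and 2 for deprivation in wt and cis SSP, 0 and 3 for carboplatin in deprived cis and cis SSP, and 4 and 2 for the interactions with carboplatin and deprivation. With a call also needing a log2 change of 1 or more in size they were 1 for cis against wt, 0 for cis SSP against cis, 1 and 0 for carboplatin in wt and cis, 0 and 0 for deprivation in wt and cis, 3 and 0 for carboplatin in deprived wt and cis, and 0 and 0 for the interactions. DESeq2 gave 0 for carboplatin in cis and 0 in deprived cis, and total counts and no filter each gave 0 for carboplatin in cis. With the length trend removed carboplatin in deprived cis SSP gave 1. Without libraries 25 and 32 carboplatin, deprivation and carboplatin in deprived medium gave 3, 3 and 5 in cis SSP. Without libraries 23 and 24, an alternative added after seeing the data, carboplatin in deprived cis gave 1. The cause was not tested.

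Reversed log2 fold changes were as follows. Cis against wt gave -0.002519 (DESeq2 size factors) and -0.01672 (at least 10 counts) for ATP7A and 0.03969 (length trend removed) for ATOX1. Cis SSP against cis without library 25 gave 0.2031 for ATP7A, -0.09805 for COX17, -0.0433 for CCS and 0.09348 for LRRC8A, and -0.1944 for COX17 with the length trend removed. Carboplatin in cis gave 0.002499 for SLC31A1 (length) and -2.973e-05, -0.006233 and -0.002502 for ATP7B (total counts, no filter, 1 fit). Carboplatin in cis SSP gave -0.09587 for SLC31A1, 0.1852 for ATOX1 and 0.02421 for COX17 without library 25, and 0.02856 for ATOX1 (length). Deprivation gave 0.02416 and 0.02109 for ATP7A in cis (total counts, at least 10 counts), -0.01192 for CCS in cis (1 fit) and -0.004467 for ATP7A in cis SSP (total counts). Carboplatin in deprived cis SSP without library 32 gave -0.01352 for ATP7A, 0.2526 for ATOX1, 0.0655 for COX17 and 0.09729 for CCS, and 0.07028 for ATOX1 (length). The interaction of LRRC8A with deprivation gave -0.01662 (DESeq2), -0.002271 (DESeq2 size factors), -0.0164 (no filter), -0.02107 (length) and -0.06851 (1 fit).

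With 1 library left out, members called ranged from 0 to 3 for cis SSP against cis, 0 to 0 for carboplatin in cis, 0 to 3 in cis SSP, 0 to 3 in deprived cis and 0 to 5 in deprived cis SSP. For cis against wt the changes ran from -0.08501 to 0.07195 for ATP7A. For cis SSP against cis the changes ran from -0.5645 to 0.2031 for ATP7A, -0.09805 to 0.526 for COX17, -0.0433 to 0.5348 for CCS and -0.2006 to 0.09348 for LRRC8A. For carboplatin in cis the changes ran from -0.04259 to 0.01333 for SLC31A1, -0.004942 to 0.03003 for ATP7B and -0.1211 to 0.05559 for COX17. For carboplatin in cis SSP the changes ran from -0.09587 to 0.188 for SLC31A1, -0.4931 to 0.1852 for ATOX1 and -0.6522 to 0.02421 for COX17. For deprivation in cis the changes ran from -0.0668 to 0.0759 for ATP7A and -0.01125 to 0.08091 for CCS. For deprivation in cis SSP the changes ran from -0.3842 to 0.4896 for ATP7A, -0.3437 to 0.21 for ATP7B, -0.5972 to 0.3035 for ATOX1, -0.6346 to 0.2432 for COX17, -0.6229 to 0.2598 for CCS and -0.3492 to 0.01832 for LRRC8A. For carboplatin in deprived cis SSP the changes ran from -0.01352 to 0.6698 for ATP7A, -0.4398 to 0.2526 for ATOX1, -0.6232 to 0.0655 for COX17 and -0.6315 to 0.09729 for CCS. For the interaction with deprivation the changes ran from -0.0385 to 0.02829 for LRRC8A.

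Over all genes, deprivation in cis SSP called 3 genes, but 103 with DESeq2, 106 with the length trend removed, 1 with total counts, 5 with no filter, 1530 with 1 fit, 4996 without libraries 25 and 32 and 0 with any single library left out. Carboplatin in cis SSP called 377, but 723, 1338, 3090 and 5835 with DESeq2, length, 1 fit and without library 25, and 9 to 5835 with 1 left out. In deprived cis SSP the count was 199, against 575, 1005, 2860 and 5679, and 0 to 5679. Cis SSP against cis called 3990, against 7979 with 1 fit and 9262 without library 25, and 1995 to 9262. Carboplatin in cis called 2702, against 1346 with DESeq2 and 401 with 1 fit, and 1755 to 2554, and in deprived cis 3253, against 2163, 1141 and 1666 to 5224. With 1 fit deprivation in wt called 2821 against 7021, and the interactions 5240 against 8807 and 4880 against 8321. The fold threshold left 3549, 1797, 2802, 45, 211, 260, 2210, 3204, 228, 103, 2174 and 1805 genes for the comparisons in the order of lines, carboplatin, deprivation, carboplatin in deprived wt, cis and cis SSP, and interactions, leaving out deprivation in cis SSP. Depth limited SLC31A2 and ATP7A, with at most 7 and 128 counts.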
